A study of Mus musculus with 6 samples.

Results

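Wnt proteins are secreted, lipid-modified signals. They bind Frizzled receptors on the cell surface together with the co-receptors Lrp5 or Lrp6, which stops the breakdown of beta-catenin. Beta-catenin then acts in the nucleus with factors of the Tcf and Lef family on targets such as Axin2, itself a brake on the pathway. Dickkopf (Dkk) proteins such as Dkk1 block the co-receptors, while secreted Frizzled-related proteins (Sfrp) and Wif1 bind the ligands. In the embryo, Wnt1 and Wnt3a from the dorsal neural tube act on the neural crest, the source of the sensory neurons and glia of dorsal root ganglia.

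The genes described here are the Wnt ligands, Frizzled receptors, co-receptors and secreted antagonists, with Axin2 and Lef1. They were taken by symbol and not by any measured value: names of the form Wnt, Fzd, Dkk or Sfrp with a number, plus Lrp5, Lrp6, Wif1, Axin2 and Lef1. This gave 42 of the 24264 genes in the table: 19 ligands, 10 Frizzled receptors, 2 co-receptors, 9 secreted antagonists, and Axin2 and Lef1.

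Messenger RNA was sequenced from lumbar dorsal root ganglia of mouse embryos at E12.5, on a mixed C57/Bl6 x 129/SvEv background. The 3 miR_cKO libraries came from Wnt1-Cre animals homozygous for a floxed miR-183-96-182 allele (flox/flox), in which Cre under Wnt1 control removes the microRNA cluster in the neural crest lineage and other Wnt1-expressing cells. The control group held Control 1 and Control 3, titled Wnt-Cre and read here as Wnt1-Cre carriers, and Control 2, titled wild type. Cre was thus present in 5 of the 6 libraries, and only Control 2 lacked it. Wnt1 is both a ligand studied here and the gene whose control regions drive the Cre. The driver cited in the labels, an early Wnt1-Cre transgene, is known for ectopic Wnt1 in the embryonic midbrain. The polyA libraries do not measure the deleted microRNAs themselves. Values of a group are given in the order of its libraries 1, 2 and 3.

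Depth was estimated from the steps of the values at 20.0 to 24.0 M reads in each library. By Xist, miR_cKO 1 stood apart (96.0 RPKM, against at most 0.0890 RPKM in the other libraries). Its 4 Y-linked genes were at 0.0416 RPKM or less, against 5.74 to 22.9 RPKM in the other libraries. By these genes miR_cKO 1 read as female and the others as male, so sex was not balanced between the groups. Sensory neuron markers were abundant throughout, with summed levels of 2207 to 3320 RPKM over 14 genes, as were glial precursor markers at 1041 to 1326 RPKM over 10 genes. Markers of other tissues were present and uneven. Mesenchyme markers summed to 334, 474 and 535 RPKM in controls and to 305, 370 and 377 RPKM in miR_cKO. Of the tested mesenchyme markers, 14 of 14 had a log2 change below 0, beside 59.6% of all tested genes. None of these markers passed the threshold, beside 0.061% of all tested genes. So did 6 of 6 skeletal muscle and 4 of 4 cartilage markers lie below 0, against 8 of 14 sensory neuron and 1 of 7 endothelium markers. Skeletal muscle markers summed to 30.1, 160 and 126 RPKM in controls and to 29.0, 31.2 and 39.3 RPKM in miR_cKO. Dorsal spinal cord and roof plate markers summed to 31.6, 62.3 and 26.5 RPKM in controls and to 23.0, 36.2 and 89.8 RPKM in miR_cKO; the roof plate gene Gdf7 was listed at 0 in all 6. Ventral spinal cord markers summed to 2.45 RPKM or less in every library. Surface ectoderm markers summed to 2.13, 8.63 and 5.07 RPKM in controls and to 2.81, 2.49 and 8.67 RPKM in miR_cKO. In such bulk tissue, fewer cells of a type and less RNA per cell cannot be told apart.

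The deleted microRNAs are shown first because their seeds, bases 2 to 8, decide which messages can carry a matching site. In the mature sequences from RefSeq (GRCm38.p6, chromosome 6, minus strand), capitals mark the seed. All 3 seeds share the bases UGGCA, and those of miR-96 and miR-182 differ only in their last base.
miR-183: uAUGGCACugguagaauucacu
miR-96: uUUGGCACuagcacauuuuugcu
miR-182: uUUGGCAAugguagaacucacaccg

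Matches to these seeds lay in the annotated 3 prime UTR of 14 of the 42 genes (33.3%). A site was counted as a 7mer (the complement of bases 2 to 8, or of bases 2 to 7 followed by A) or as an 8mer (both). Among tested genes with a 3 prime UTR, 33.8% of the whole table and 8 of the 26 Wnt genes (30.8%) carried a site, shares near each other. UTR lengths were not matched: the median of tested genes with a site was 3045.5 bases for Wnt genes and 2185 for the whole table. Fzd3 stood out by number, with 6 sites in a 3 prime UTR of 10270 bases. Of the 11201 tested genes with a 3 prime UTR, 24 (0.214%) had 6 or more; their median UTR was long as well, at 8361 bases. Sfrp1 had 3 sites and Lrp6 had 2. Wnt3, Wnt4, Wnt5a, Wnt5b, Wnt7a, Wnt8b, Wnt9b, Fzd1, Fzd5, Dkk1 and Dkk2 had 1 each. No match was found in Wnt1, Axin2, Lef1 or Lrp5, whose annotated 3 prime UTRs were 933, 1388, 1287 and 202 bases long.

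The 6 Fzd3 sites are printed because no other gene of the set held as many, and the 8mers of Lrp6 and Wnt4 because they were the only other 8mers. Each window has 22 bases of the message strand in mm10, ends at the base opposite the first base of the microRNA, and has the match in capitals. Both miR-182 8mers, in Fzd3 and in Wnt4, are also a 7mer of miR-96.
Fzd3 miR-183 site (chr14:65202188-65202209, minus strand): tagctaagataacaGTGCCATg
Fzd3 miR-182 8mer (chr14:65201804-65201825, minus strand): agtgagatgtgatcTTGCCAAA
Fzd3 miR-183 site (chr14:65200969-65200990, minus strand): ggagaggtctggcttTGCCATA
Fzd3 miR-182 site (chr14:65200301-65200322, minus strand): tgcatcactgcctaTTGCCAAg
Fzd3 miR-96 site (chr14:65194827-65194848, minus strand): gcatggcctcctgaGTGCCAAg
Fzd3 miR-182 site (chr14:65193656-65193677, minus strand): taggtactcaatttTTGCCAAc
Lrp6 miR-183 8mer (chr6:134450576-134450597, minus strand): cagttttgctgcttGTGCCATA
Wnt4 miR-182 8mer (chr4:137296902-137296923, plus strand): cctcaagttatttaTTGCCAAA

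**Figure D1:**
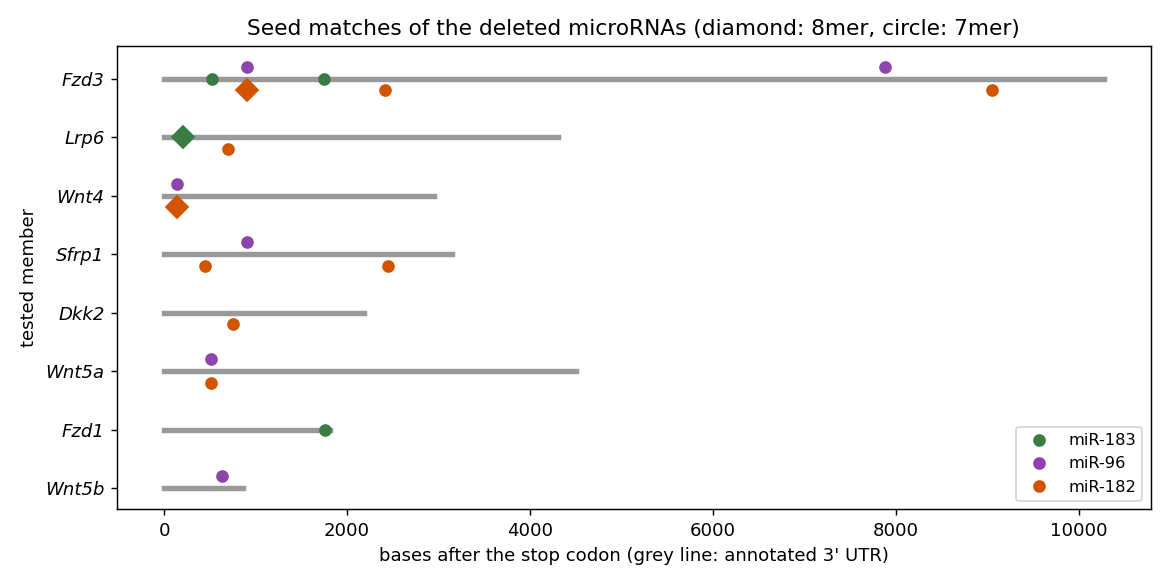
Positions of seed matches in the 3 prime UTRs of the 8 tested Wnt pathway genes that carry any, in bases after the stop codon. Grey lines are the annotated UTRs, diamonds are 8mers and circles are 7mers; a position matched by both miR-96 and miR-182 is drawn with a symbol for each. Fzd3 has 6 positions over 10270 bases, and 4 of them start within 2411 bases of the stop codon.

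Receptors were far more abundant than ligands. Levels are in RPKM, reads scaled by the length of the message and the size of the library, which allows levels of different genes to be set side by side. Of the 42 genes, 26 had a mean of at least 1 RPKM over the 6 libraries, and 5 had a mean of at least 10 RPKM: Sfrp1, Fzd3, Lrp6, Fzd2 and Fzd7. Another 11 stayed under 1 RPKM in every library. Dkk4, a co-receptor blocker, was listed at 0 in all 6. Summed over the 19 ligands, the level was 10.5 to 26.4 RPKM per library, beside 55.5 to 88.3 RPKM for the 10 Frizzled receptors and 38.9 to 64.1 RPKM for the 9 antagonists. All 3 sums ranged across both genotypes.

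**Figure D2:**
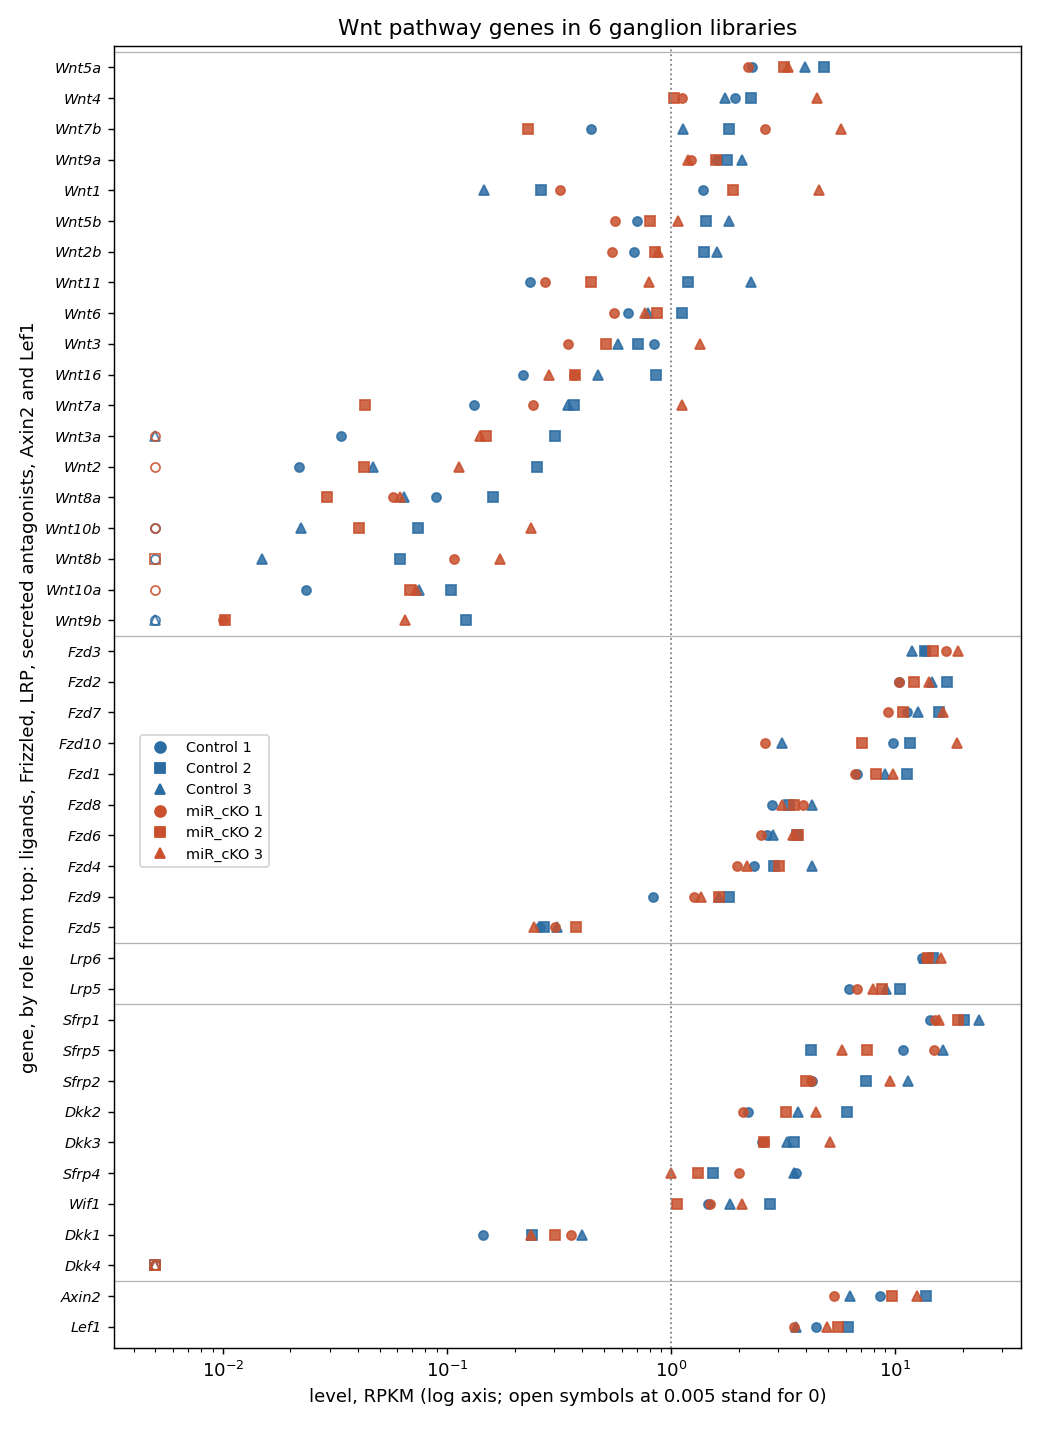
Level of each of the 42 genes in each of the 6 libraries, in RPKM on a log axis, grouped by role. Blue marks controls and orange miR_cKO, with circles, squares and triangles for libraries 1, 2 and 3; the dotted line is 1 RPKM. Most receptors lie above 1 RPKM and most ligands below it, and of the genes above 0 in every library, Wnt1, Wnt7a and Wnt7b have the widest spread. Open symbols at 0.005 RPKM stand for a value of 0.

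No tested Wnt ligand, receptor or antagonist passed the comparison of miR_cKO with control. Genes entered the fit with 1 RPKM or more in at least 3 of the 6 libraries, which 26 of the 42 did; the 16 others were 13 ligands, Fzd5, Dkk1 and Dkk4. Of the 26, 0 passed a limma adjusted p of 0.05, beside 0.061% of all 13118 genes tested (0.0534% higher and 0.00762% lower in miR_cKO). The smallest limma adjusted p was 0.739. At an unadjusted limma p under 0.05 there were 2, Fzd3 higher and Sfrp4 lower, beside 5.16% of all genes (2.85% higher and 2.31% lower). The groups did not overlap for 2 of the 26, beside 10.9% of all genes. The log2 change was below 0 for 17 of 26, beside 59.6% of all genes, and the median was -0.090, beside -0.024 over all genes. Leaving out Control 2 gave 11 of 26 below 0, and leaving out Control 1 gave 20 of 26. Changes are differences of log2(RPKM + 1), miR_cKO minus control, which understates the change of low genes. With 3 libraries a side, an exact permutation test cannot give a p under 0.1.

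**Figure D3:**
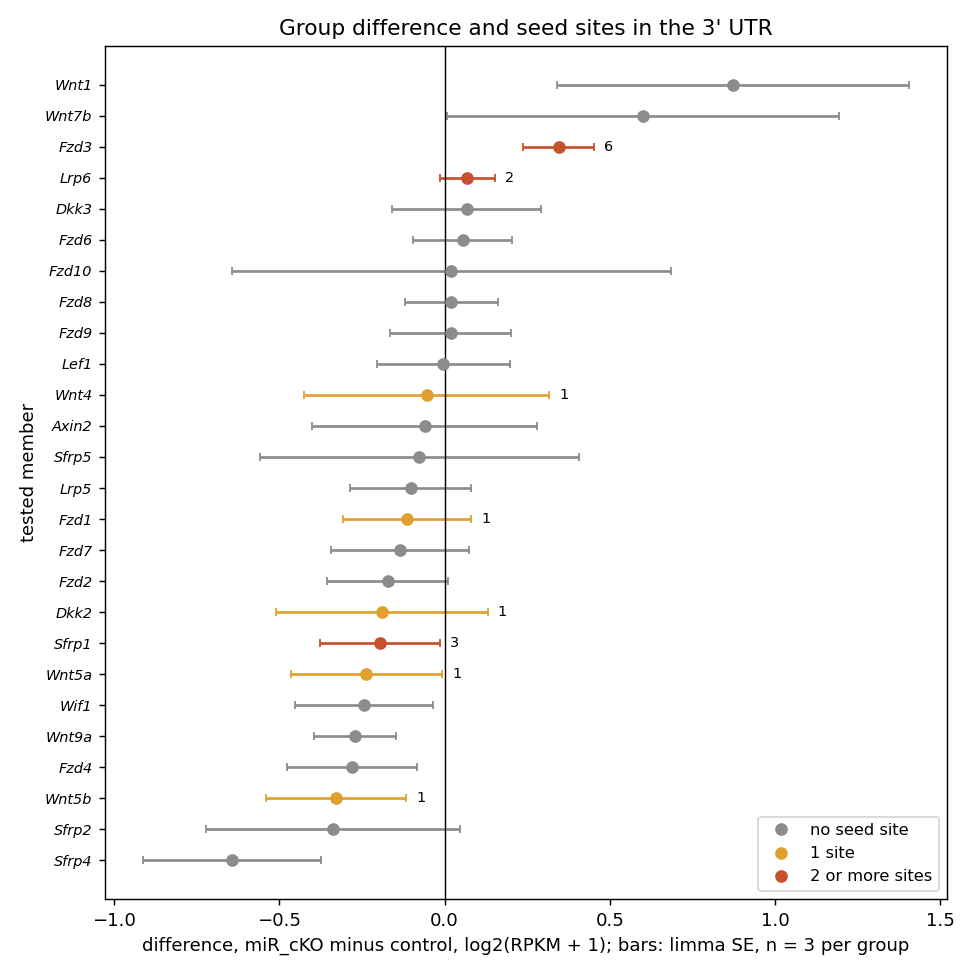
Difference between miR_cKO and control for the 26 tested genes, on the log2(RPKM + 1) scale, with the limma SE (n = 3 per group). Colour and the number beside a point give the seed sites in its 3 prime UTR. Fzd3, with 6 sites, is at 0.34, Lrp6 with 2 is at 0.069 and Sfrp1 with 3 is at -0.20; the widest bars are those of Fzd10, Wnt7b and Wnt1.

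Wnt1 had the highest ratio between libraries among the tested ligands, and Wnt7b the wider range in RPKM. It was at 1.38, 0.261 and 0.147 RPKM in controls and at 0.319, 1.88 and 4.56 RPKM in miR_cKO, from about 71, 15, 7, 17, 99 and 225 reads. Control 1 was above miR_cKO 1, so the groups overlapped, and the highest library was 31.1 times the lowest. The wild type Control 2 lay between the Cre-carrying Controls 3 and 1. The log2 change of 0.87 (SE 0.53, limma adjusted p = 1.00, exact two-sided permutation p = 0.2) was 1.63 with a pseudocount of 0.1 RPKM. It was 0.37 without miR_cKO 3, 1.41 without miR_cKO 1 and 0.74 among Cre carriers alone. The summed dorsal spinal cord markers were also highest in miR_cKO 3, at 89.8 RPKM. They came next in Control 2, at 62.3 RPKM, where Wnt1 was low. Genes of the list differed: in Control 2, Zic1 gave 35.3 RPKM of the sum, and Olig3 was at 0.377 RPKM. Olig3 was at 1.02 RPKM in Control 1 and 1.36 RPKM in miR_cKO 3, but at 0.456 RPKM in miR_cKO 2, where Wnt1 was at 1.88 RPKM. Lmx1a was at 0.952, 1.15, 1.33 and 1.33 RPKM in Control 1, Control 2, miR_cKO 2 and miR_cKO 3. The part of dorsal spinal cord in the Wnt1 values was not tested.

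Wnt1 and Wnt10b are neighbours on chromosome 15 of mm10, with 11.7 kb between them, in opposite directions (Wnt1 98789857 to 98793837, plus strand). Wnt10b had 0, 4 and 1 reads in controls and 0, 2 and 11 reads in miR_cKO. Both neighbours thus had their highest value in miR_cKO 3, where Wnt10b was at 0.237 RPKM. Among the other close pairs of ligands, only Wnt9a was at 1 RPKM or more in every library. Wnt9a was at 1.19 to 2.06 RPKM and Wnt3a, 16.2 kb away, at 0 to 0.302 RPKM; Wnt3 was at 0.346 to 1.34 RPKM and Wnt9b, 24.3 kb away, at 0 to 0.121 RPKM. Wnt6 was at 0.557 to 1.11 RPKM and Wnt10a, 6.19 kb away, at 0 to 0.104 RPKM.

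Wnt5a, a ligand known mainly for signalling without beta-catenin, had the highest mean of the ligands. It was at 2.28, 4.80 and 3.97 RPKM in controls and at 2.20, 3.18 and 3.33 RPKM in miR_cKO, with overlapping groups (log2 change -0.24, SE 0.23, limma adjusted p = 1.00). The change was -0.062 without Control 2 and -0.47 without Control 1. Its 2 lowest libraries were Control 1 and miR_cKO 1. These were also the libraries with the lowest mesenchyme sums, 334 and 305 RPKM; the part of mesenchyme in the Wnt5a values was not tested. Wnt5b, its close relative, averaged 1.31 ± 0.559 RPKM in controls and 0.812 ± 0.256 RPKM in miR_cKO (SD, n = 3 each). Its log2 change was -0.33 (SE 0.21, limma adjusted p = 1.00), and -0.53 without Control 1. Wnt11, another ligand of that branch, was at 0.233, 1.19 and 2.26 RPKM in controls and at 0.273, 0.440 and 0.798 RPKM in miR_cKO, and did not meet the level for testing. Wnt2b, at 0.682, 1.41 and 1.59 RPKM in controls and 0.543, 0.845 and 0.873 RPKM in miR_cKO, did not meet it either. Both were highest in Controls 2 and 3, the 2 libraries with the most mesenchyme and muscle marker RNA.

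Wnt4 and Wnt7b, which signal in the developing spinal cord among other tissues, had their highest level in miR_cKO 3. The sums of dorsal spinal cord and surface ectoderm markers were also highest there, at 89.8 and 8.67 RPKM, and their part was not tested. Wnt4, which carries a miR-182 8mer, was at 1.93, 2.27 and 1.74 RPKM in controls and at 1.11, 1.03 and 4.46 RPKM in miR_cKO. Thus 2 miR_cKO libraries were below all controls and 1 was above them (log2 change -0.055, SE 0.37, limma adjusted p = 1.00). Wnt7b was at 0.437, 1.81 and 1.12 RPKM in controls and at 2.61, 0.229 and 5.74 RPKM in miR_cKO, with the lowest and the highest library both in the miR_cKO group. Wnt7b came next in miR_cKO 1, where the dorsal spinal cord sum was lowest, at 23.0 RPKM. Its log2 change of 0.60 (SE 0.59, limma adjusted p = 1.00) was 0.042 without miR_cKO 3 and 1.27 without miR_cKO 2. Wnt7a, its paralog, had 73 reads in miR_cKO 3 and 3 to 28 reads elsewhere.

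Wnt9a was the ligand with the smallest spread among those tested. It was at 1.61, 1.77 and 2.06 RPKM in controls and at 1.22, 1.58 and 1.19 RPKM in miR_cKO, so that every miR_cKO library was below every control. The closest were miR_cKO 2 and Control 1, from about 115 and 114 reads, so their order rested on the scaling for library size. The group difference of -0.27 (SE 0.12) did not pass (limma adjusted p = 1.00, exact permutation p = 0.1, the smallest possible). Of all tested genes 6.24% were lower without overlap. Wnt8a also had separate groups but rested on 1 to 6 reads per library and was not tested. The remaining ligands, Wnt2, Wnt8b and Wnt16 among them, were under 1 RPKM in every library or, for Wnt3, Wnt6 and Wnt7a, reached it in 1.

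Among the receptors, Fzd3 was the gene nearest to the threshold. Fzd3 guides growing axons and acts with the Celsr and Vangl proteins of planar polarity. It was at 13.6, 13.5 and 11.8 RPKM in controls and at 16.7, 14.6 and 19.0 RPKM in miR_cKO. Every miR_cKO library was above every control, beside 4.63% of all tested genes that were higher without overlap. The log2 change was 0.34 (SE 0.11, limma unadjusted p = 0.0154, limma adjusted p = 0.739, exact permutation p = 0.1). It ranged from 0.26 without miR_cKO 3 to 0.43 without miR_cKO 2. Wnt9a was the only other tested Wnt gene whose groups did not overlap, in the other direction.

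Among tested Wnt genes, the number of seed sites and the log2 change did not rise together throughout. The 18 genes with no site had a median log2 change of -0.068, with 7 above 0. The 5 genes with 1 site had a median of -0.19, with 0 above 0. The 3 genes with 2 or more sites, Fzd3, Lrp6 and Sfrp1, had a median of 0.069. Over all tested genes with a 3 prime UTR, these medians were -0.037, -0.0061 and 0.025, and it was 0.068 for the 24 genes with 6 or more. These are counts over few genes, given without a test, and a matched seed does not show that a microRNA binds there. Within the set, Fzd3 with 6 sites stood at 0.34 and Sfrp1 with 3 sites at -0.20.

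The other Frizzled genes overlapped between the groups. Fzd2 was at 10.4, 17.0 and 14.6 RPKM in controls and at 10.4, 12.0 and 14.0 RPKM in miR_cKO (log2 change -0.17, SE 0.18; -0.027 without Control 2 and -0.36 without Control 1). Fzd7 was at 11.2, 15.6 and 12.6 RPKM in controls and at 9.25, 10.8 and 16.3 RPKM in miR_cKO (log2 change -0.13, SE 0.21). In both genes the spread within a genotype exceeded the difference between the means (limma adjusted p = 1.00 each). Fzd1 ran from 6.62 to 11.3 RPKM over the 6 libraries, Fzd8 from 2.81 to 4.23, Fzd6 from 2.51 to 3.66, Fzd4 from 1.96 to 4.22 and Fzd9 from 0.828 to 1.81 RPKM. The highest of these values lay in a control for Fzd1, Fzd4, Fzd8 and Fzd9 and in miR_cKO 2 for Fzd6. Fzd1, Fzd4, Fzd6, Fzd8 and Fzd9 had log2 changes of -0.11, -0.28, 0.055, 0.021 and 0.018, and limma gave each of the 5 an adjusted p of 1.00. Fzd5 was at 0.243 to 0.375 RPKM in all libraries and was not tested.

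Fzd10, a receptor of the dorsal neural tube, varied more than any other Frizzled gene and was named after its values were seen. It was at 9.73, 11.6 and 3.13 RPKM in controls and at 2.61, 7.11 and 18.9 RPKM in miR_cKO, a 7.21-fold range. The lowest libraries were Control 3 and miR_cKO 1, so the range ran across both genotypes (log2 change 0.021, SE 0.66, limma adjusted p = 1.00). The change was -0.60 without miR_cKO 3 and 0.62 without miR_cKO 1. The summed dorsal spinal cord markers were also lowest in Control 3 and miR_cKO 1, at 26.5 and 23.0 RPKM, and highest in miR_cKO 3. Their part in the Fzd10 values was not tested.

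The co-receptors differed in how far they varied. Lrp6 was at 13.2, 14.7 and 13.4 RPKM in controls and at 13.7, 13.9 and 15.9 RPKM in miR_cKO, the narrowest range of any tested member at 1.21-fold. Its log2 change was 0.069 (SE 0.084, limma adjusted p = 1.00), and 0.0052 without miR_cKO 3. Its message carries a miR-183 8mer and a miR-182 7mer. Lrp5 was at 6.17, 10.5 and 9.08 RPKM in controls and at 6.77, 8.73 and 7.90 RPKM in miR_cKO, with overlapping groups (log2 change -0.10, SE 0.18, limma adjusted p = 1.00).

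Of the 7 tested antagonists, a class set here by gene name, 6 had a log2 change below 0, beside 59.6% of all tested genes. None passed, beside 0.061% of all tested genes. Sfrp1, the most abundant of the 42 genes, was at 14.3, 20.2 and 23.7 RPKM in controls and at 15.0, 18.9 and 15.7 RPKM in miR_cKO (log2 change -0.20, SE 0.18). Sfrp2 was at 4.26, 7.37 and 11.4 RPKM in controls and at 4.22, 3.98 and 9.42 RPKM in miR_cKO (log2 change -0.34, SE 0.38). Without Control 3 the changes of Sfrp1 and Sfrp2 were -0.045 and -0.036; that of Sfrp1 was -0.39 without Control 1, and that of Sfrp2 was -0.68 without miR_cKO 3. Control 3 was highest for both, and both had overlapping groups (limma adjusted p = 1.00 each). Control 3 also had the highest mesenchyme sum, 535 RPKM, whose part was not tested. Sfrp4 was at 3.60, 1.53 and 3.54 RPKM in controls and at 2.00, 1.32 and 0.998 RPKM in miR_cKO. It was the only antagonist with an unadjusted limma p under 0.05 (log2 change -0.64, SE 0.27, limma unadjusted p = 0.0487, limma adjusted p = 0.959), while Control 2 lay within the miR_cKO range. The change was -0.93 without Control 2.

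Sfrp5 was at 10.9, 4.22 and 16.3 RPKM in controls and at 14.9, 7.48 and 5.79 RPKM in miR_cKO, highest in Control 3 and miR_cKO 1 (log2 change -0.077, SE 0.48, limma adjusted p = 1.00). Its change was -0.56 without Control 2 and 0.30 without Control 3. Both genotypes thus held a high and a low library. The summed sensory neuron markers were at 2734, 2207 and 2832 RPKM in controls and at 3320, 2792 and 2268 RPKM in miR_cKO, lowest in Control 2 and miR_cKO 3, as was Sfrp5. Their part in the Sfrp5 values was not tested. Dkk2 ran from 2.09 to 6.09 RPKM over the 6 libraries, Dkk3 from 2.55 to 5.10 and Wif1 from 1.06 to 2.75 RPKM. Dkk2, Dkk3 and Wif1 had log2 changes of -0.19, 0.067 and -0.24, and Dkk1 had 7 to 18 reads per library.

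The nuclear end of the pathway overlapped between the groups too. Axin2 is a general target of beta-catenin, and Lef1 is one of its DNA-binding partners. Axin2 was at 8.53, 13.7 and 6.25 RPKM in controls and at 5.30, 9.64 and 12.4 RPKM in miR_cKO, with group means of 9.51 ± 3.84 and 9.12 ± 3.58 RPKM (SD, n = 3 each). Lef1 was at 4.41, 6.16 and 3.60 RPKM in controls and at 3.54, 5.54 and 4.96 RPKM in miR_cKO. The log2 changes were -0.060 (SE 0.34) for Axin2 and -0.0034 (SE 0.20) for Lef1 (limma adjusted p = 1.00 each). For both, Control 3 and miR_cKO 1 were the 2 lowest libraries, as for Fzd10. This held for these 3 of the 26 tested genes, a share near the 12.2% of all tested genes. Axin2 was highest in Control 2, at 13.7 RPKM, where Wnt1 was at 0.261 RPKM. It came next in miR_cKO 3, at 12.4 RPKM, where Wnt1 was highest, at 4.56 RPKM. Of the other libraries, miR_cKO 2 and then Control 1 had the most of both genes, and Control 3 and miR_cKO 1 had less. The relation between Axin2 and Wnt1 was not tested.

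**Figure D4:**
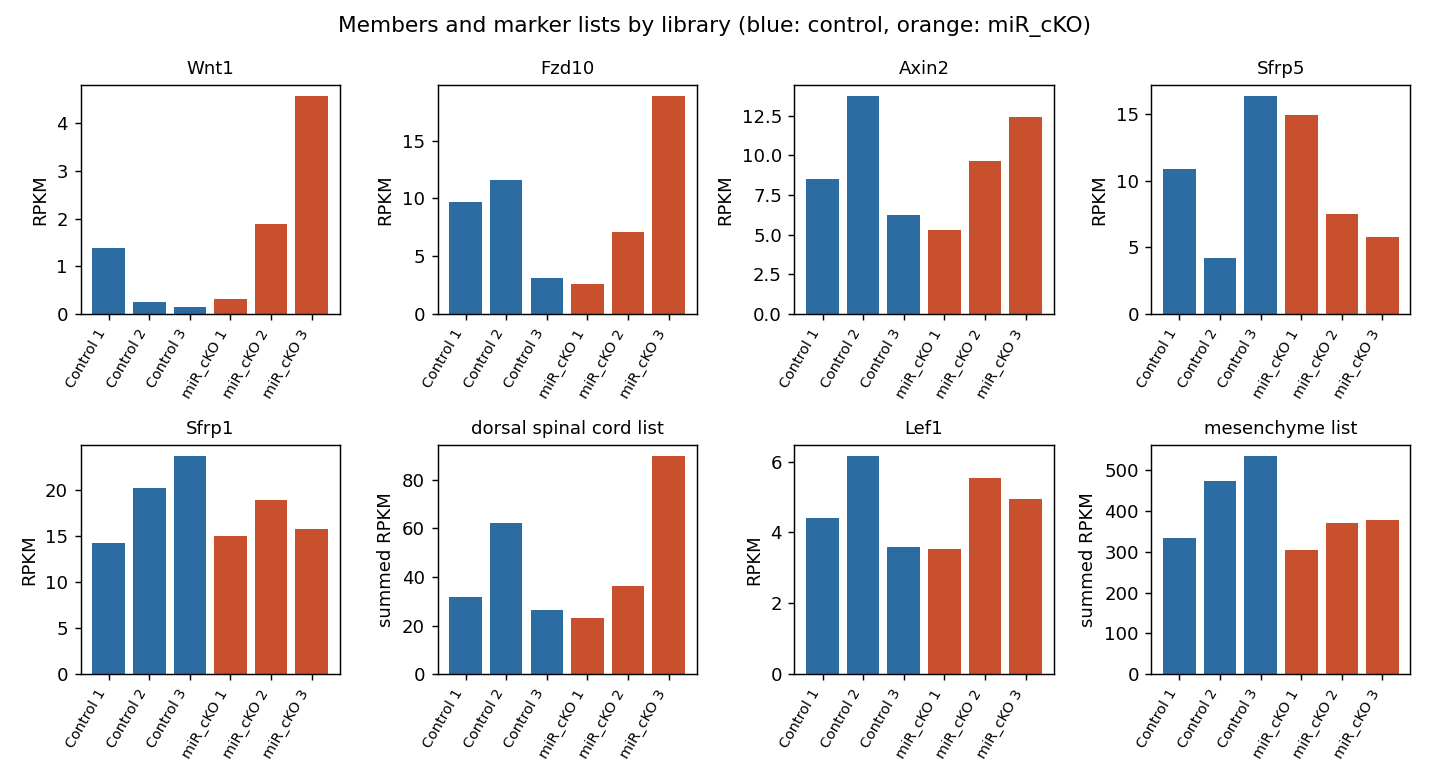
Level in each library of 6 Wnt pathway genes and of 2 marker lists, in RPKM (summed over the list for lists), with bars from 0; blue is control and orange miR_cKO, without error bars because each bar is 1 library. Fzd10, Axin2 and Lef1 are lowest in Control 3 and miR_cKO 1, where Sfrp5 is highest, and Wnt1 is highest in miR_cKO 3 at 4.56 RPKM.

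The library with the lowest and with the highest level differed from gene to gene, and their counts are given beside those of all tested genes without a test. Of the 26 tested genes, 11 were lowest in miR_cKO 1, beside 30.1% of all tested genes. Control 2 was highest for 9, miR_cKO 3 for 8 and Control 3 for 7, beside 20.7%, 20.7% and 23.7% of all tested genes. For 10 of the 26, among them Fzd1, Fzd2, Lrp5, Wnt5a, Dkk2 and Sfrp1, the 2 lowest libraries were Control 1 and miR_cKO 1, beside 19.3% of all tested genes. For 9, among them Axin2, Fzd10, Wnt4 and Lrp6, the 2 highest were Control 2 and miR_cKO 3, beside 15.0%. Controls 2 and 3 were the 2 highest for 6, namely Wnt5a, Wnt5b, Wnt9a, Fzd2, Lrp5 and Sfrp1, beside 14.8%. The first 2 of these pairs hold 1 library of each genotype, and the last holds controls only.

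The rest of the pathway showed no called gene either. Of 69 further Wnt pathway genes in the table, 60 were tested, and 0 passed (smallest limma adjusted p = 0.866), beside 0.061% of all tested genes. At an unadjusted limma p under 0.05 there were 2, both higher, beside 2.85% of all tested genes. These were Celsr2, a planar polarity cadherin, at 6.67, 8.75 and 8.60 RPKM in controls and 11.6, 9.25 and 17.3 RPKM in miR_cKO, and Ryk, a Wnt receptor of growing axons, at 22.2, 25.4 and 24.9 RPKM and 26.3, 27.5 and 28.4 RPKM. In both, all miR_cKO libraries were above all controls; such a separation was found for 2 of the 60 genes, beside 4.63% of all tested genes. Each message has 1 seed site, as 21.9% of tested genes do. Their log2 changes were 0.57 (limma adjusted p = 0.866) and 0.17 (limma adjusted p = 0.959). Frat1, a Gsk3 inhibitor, came next among higher genes, at 0.20.

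The lower pathway genes with the smallest p were Prickle2, a planar polarity protein, Rspo2, a ligand that strengthens Wnt signals, and Dvl3, a scaffold below the receptors. Their log2 changes were -0.18, -0.20 and -0.14 (limma adjusted p = 1.00 each). The groups separated for Rspo2, at 2.04, 1.78 and 1.85 RPKM in controls and 1.71, 1.44 and 1.40 RPKM in miR_cKO. It was the only 1 of the 60 to be lower without overlap, beside 6.24% of all tested genes. The 21 tested genes of the destruction complex and cytoplasm, some of which relay the signal and some restrain it, had a median log2 change of 0.019 and a range of -0.14 to 0.20. The 13 nuclear genes had a median of -0.078, with 10 below 0, beside 59.6% of all tested genes. Ctnnb1, which encodes beta-catenin, was at 323, 392 and 311 RPKM in controls and at 305, 375 and 371 RPKM in miR_cKO.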

How the data were processed

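Stranded polyA libraries, 3 control and 3 miR_cKO, were sequenced, per the labels' protocols. The submitters' processing notes name Bowtie and the build mm10, with a counting tool, annotation and strand setting not given in the sources used here. Per gene, the authors deposited 1 table of 24264 genes without a stated unit; its values were read as RPKM from their steps, and FPKM cannot be told apart. Reads and depth were estimated from these steps (whole within 0.01 read, found for 39 of 42 members), so they are approximate. They were not found for Fzd3, Lrp6 and Dkk4.

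Values were compared as log2(RPKM + 1) with limma 3.58.1 in R 4.3.3 (empirical Bayes, trend and robust settings, all 13118 tested genes, Benjamini-Hochberg), checked on simulated data. Single values used exact permutation tests over the 6 libraries. Seed sites were searched in the main GENCODE M21 transcript (APPRIS principal, then longest). Exons of Axin2, Fzd5, Fzd6, Lef1, Sfrp2, Wnt5a, Wnt7b and Wnt11 overlap a gene on the opposite strand by 3.15% to 17.8% of their bases, so without stated strand use their values may hold its reads. Members and lists were chosen with earlier results of these data known. Full values were given for Wnt1, Lrp5, Lrp6, Axin2, Lef1, members with an unadjusted p under 0.05, the 3 most abundant of each role, and up to 3 other pathway genes each way; others so shown (Fzd10, Wnt2b, Wnt9a, Wnt11, Ctnnb1) were picked after their values were seen. Pooling of embryos within a library is not stated, and p-values measure the spread between these libraries.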

Additional observations from a re-analysis of the deposited data

How the results depend on the processing

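No Wnt gene and no other pathway gene passed in any of the 12 alternative settings, where the smallest limma adjusted p was 0.445 and 0.425. Few genes of the whole table passed in any of them. None passed with upper quartile scaling, without the trend or with a replicate block, nor without Control 2, Control 3, miR_cKO 2 or miR_cKO 3. The absence of passing genes was therefore not particular to the Wnt genes. With the replicate number as a block (replicate block), 0 of 26 passed and Wnt1 stayed at 0.87 (limma adjusted p = 0.897). Same-numbered libraries correlated at 0.36, 0.33 and -0.22 in their deviations from the group means, and differently numbered ones at -0.70 to 0.52. With 3 libraries a side, these values cannot decide whether the numbers pair the libraries. Without the filter, 41 members entered the fit and 0 passed, beside 6 higher and 3 lower of all 20024 genes in that fit. Counting 8mers alone left 3 members with a site instead of 14.

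The sign of 13 uncalled members turned in some setting. Lef1 was 0.026 with median centring and 0.0070 with upper quartile scaling. Leaving out 1 library at a time gave log2 changes from -0.35 to 0.024 for Fzd7, -0.56 to 0.30 for Sfrp5, -0.30 to 0.25 for Axin2, -0.60 to 0.62 for Fzd10, -0.28 to 0.045 for Fzd1, -0.30 to 0.043 for Lrp5, -0.15 to 0.17 for Lef1, -0.47 to 0.10 for Dkk2, -0.088 to 0.14 for Fzd8, -0.19 to 0.20 for Dkk3, -0.023 to 0.18 for Fzd6, -0.52 to 0.19 for Wnt4 and -0.17 to 0.14 for Fzd9; the cause was not tested. The sign of the other tested members, Fzd3, Wnt1, Wnt9a and Sfrp4 among them, held in all 12 settings. For Fzd3 and Wnt9a, whose groups do not overlap, it is fixed when a library is left out. The 11 members under 1 RPKM in every library rest on few reads, at most 35 in any library (Wnt16, Control 2).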
